A study of Homo sapiens with 10 samples.

Results

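The Wnt pathway genes were followed through acetylation of histone H3 at lysine 27 (H3K27ac), a chromatin mark of active promoters and enhancers, in H1975, an established human lung adenocarcinoma line with mutant EGFR. Members were the regions of the annotated count table whose assigned gene was a Wnt ligand, Frizzled receptor, LRP5 or LRP6, ROR1 or ROR2, an R-spondin or LGR receptor, a DKK or SFRP inhibitor, RNF43, ZNRF3, an AXIN, APC, APCDD1, an NKD, CTNNB1, a TCF/LEF factor or a TLE corepressor. This gave 261 regions of 502 bp, of 67387 annotated and 169637 counted regions, and they belonged to 43 of the 65 genes with such names. DMSO controls were cultured drug-free for 21 days and given DMSO for 3 days. Osimertinib, which inhibits mutant EGFR, was given at 500 nM over 24 days to obtain the drug-tolerant persisters (osimertinib DTP), the cells that survive such exposure. The osimertinib DTP + AZD5153 cells received the same dose for 21 days and then 150 nM AZD5153, a bivalent inhibitor of BET bromodomain proteins, for 3 days, and the labels do not say whether osimertinib was continued. Every group came from the same cell line and had 3 libraries, described as biological replicates, and 1 input library served all of them.

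Wnt ligands bind Frizzled receptors together with the co-receptors LRP5 and LRP6, and R-spondins acting through LGR receptors keep Frizzled at the cell surface by opposing RNF43 and ZNRF3. A destruction complex built on APC and AXIN degrades beta-catenin, the product of CTNNB1, until the receptors are engaged. Beta-catenin then joins TCF/LEF factors on DNA and displaces TLE corepressors, and several target genes, among them AXIN2, NKD1, RNF43, ZNRF3 and LGR5, feed back on the pathway. Some ligands, such as WNT5A, act largely without beta-catenin through ROR1 and ROR2. In the lung the pathway is known for its part in airway and alveolar development and in epithelial repair.

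Each region was assigned to the gene with the nearest transcription start site (TSS), which need not be the gene it regulates. Of the 261 regions, 65 lay within 1 kb of a TSS and are called promoter regions here, 23 lay at 1 to 3 kb, 107 lay in gene bodies (20 of them in the body of another gene or transcript) and 66 were distal intergenic. ROR1 had 23 regions, TCF7L2 19, FZD2 16, and LRP5, DKK3 and WNT7B 15 each. The 22 genes with no annotated region included 11 ligands, FZD8, FZD9, FZD10, DKK2, DKK4, SFRP1, SFRP2, SFRP5, APCDD1, NKD2 and LEF1. Levels are CPM, the count of a region relative to the library total after TMM scaling. At this bulk level, fewer marked cells and less mark per cell cannot be told apart.

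Total counts ranged from 6263443 to 10463351 per H3K27ac library. Osimertinib DTP replicate 2 and osimertinib DTP + AZD5153 replicate 3 stood apart. They carried 33.7% and 43.0% of their member counts in promoter regions, against 18.3% to 25.2% in the other 7 libraries. A deposited peak overlapped 165 member regions in osimertinib DTP + AZD5153 replicate 3 and 204 to 220 in each other library, and 83 members had a peak in all 9 libraries. Input counts in member regions had a median of 12, against 10 over all regions. All 9 lung epithelial markers had a promoter region with H3K27ac. Their summed level was 179.7 to 258.8 CPM in DMSO, 192.4 to 422.5 CPM in osimertinib DTP and 216.2 to 362.0 CPM in osimertinib DTP + AZD5153. Within the list, the mean at NKX2-1 went from 11.7 to 24.3 and 29.4 CPM, whereas that at SFTPB went from 7.53 to 4.32 and 1.97 CPM, at NAPSA from 21.8 CPM in DMSO to 15.4 CPM after AZD5153, and at CDH1 from 16.3 to 17.9 and 13.4 CPM. Of the fibroblast markers, 4 of 5 had one, and the mean level at PDGFRB was 2.89 CPM in DMSO, 19.3 CPM in osimertinib DTP and 29.9 CPM in osimertinib DTP + AZD5153. DCN had none. Summed over the fibroblast list, the level was 18.6 to 30.6 CPM in DMSO, 35 to 120 CPM in osimertinib DTP and 48.8 to 153 CPM in osimertinib DTP + AZD5153, and its part in the results was not tested. Only CD68 of the 4 immune markers and CDH5 of the 3 endothelial markers had a promoter region.

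The first question was which Wnt pathway regions gained or lost H3K27ac in persisters. A region was called at a Benjamini-Hochberg adjusted p under 0.05 over all 157919 regions tested with edgeR. In osimertinib DTP, 16 members were higher and 18 were lower than in DMSO, or 6.13% and 6.9% of members. Over all regions tested, 10.7% were called, 5.58% higher and 5.13% lower, so the members' shares were near the background. The calls fell in 10 higher and 14 lower loci once regions within 1000 bp were merged. After AZD5153, 24 members were higher and 31 lower than in DMSO, or 9.2% and 11.9%, beside a background of 18.1% called, 9.05% higher and 9.01% lower. The median log2 fold change of members was 0.23 and 0.44 in these comparisons, and 0.15 and 0.23 over all regions tested. Both comparisons use the same DMSO libraries.

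Calls were also counted by distance from the TSS. In osimertinib DTP, 5 of the 65 promoter regions of members were higher and 0 were lower. Of all annotated promoter regions, 2.78% were higher and 1.85% lower in the same comparison. After AZD5153 the count was again 5 higher and 0 lower, beside 5.32% and 3.18% of all annotated promoter regions. These counts changed with single libraries, and the shares over all promoter regions in those fits are not given here. Without osimertinib DTP + AZD5153 replicate 3, 13 promoter regions of members were higher and 1 lower in osimertinib DTP, and 13 were higher and 6 lower after AZD5153. Without osimertinib DTP replicate 2, DMSO replicate 2 or DMSO replicate 3, 0 were called in osimertinib DTP. Away from promoters, 11 of 196 members were higher and 18 lower in osimertinib DTP, and 19 were higher and 31 lower after AZD5153. The lower shares, 9.18% and 15.8%, lay beside 10.3% and 15.6% of all annotated regions away from promoters, and the higher shares, 5.61% and 9.69%, beside 9.35% and 13.7%. These differences were not tested.

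**Figure D1:**
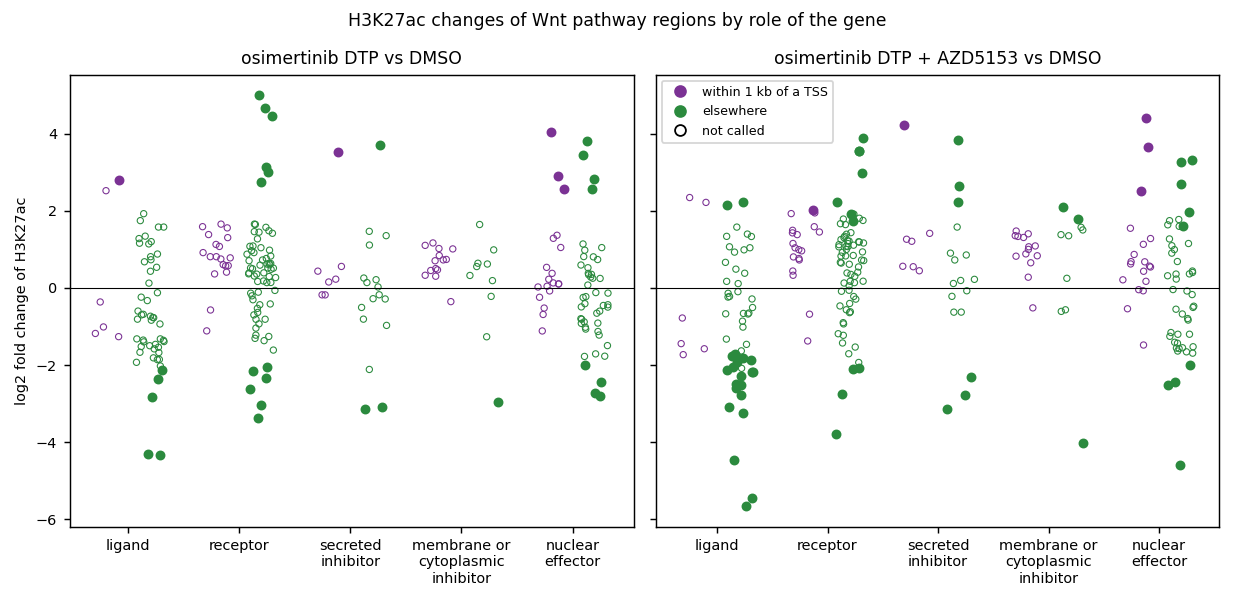
Log2 fold change of H3K27ac against DMSO for each of the 261 Wnt pathway regions, grouped by the role of the gene, in osimertinib DTP (left) and in osimertinib DTP + AZD5153 (right). Filled points are called and open points are not; after AZD5153, 19 of the 57 ligand regions were lower, and no promoter region was called lower in either panel.

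Promoter sequences are shown for TLE4 and SFRP4, since both genes had a called region overlapping the sequence around the RefSeq start. The SFRP4 region covered the start itself, and the TLE4 region ended upstream of it. They are the 250 bases before and 50 bases after the start, from RefSeq (GRCh38.p14), and the capitals mark the bases from the start on.

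TLE4, chr9:79572927-79573226, plus strand: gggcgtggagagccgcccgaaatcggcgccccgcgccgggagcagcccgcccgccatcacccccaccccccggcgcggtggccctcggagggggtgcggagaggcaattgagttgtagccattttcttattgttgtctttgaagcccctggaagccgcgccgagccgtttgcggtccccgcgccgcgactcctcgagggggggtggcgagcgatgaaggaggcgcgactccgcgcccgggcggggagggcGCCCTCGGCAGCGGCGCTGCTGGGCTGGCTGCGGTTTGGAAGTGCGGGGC
SFRP4, chr7:37916768-37917067, minus strand: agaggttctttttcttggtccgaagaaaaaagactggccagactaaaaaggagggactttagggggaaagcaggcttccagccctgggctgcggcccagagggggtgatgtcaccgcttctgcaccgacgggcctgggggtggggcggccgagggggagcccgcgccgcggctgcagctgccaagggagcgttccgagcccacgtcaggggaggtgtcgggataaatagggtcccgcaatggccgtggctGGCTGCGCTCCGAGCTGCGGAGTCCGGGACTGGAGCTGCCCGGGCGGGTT

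The TLE4 sequence held 39 CpG dinucleotides and was 73.3% G or C, and the SFRP4 sequence held 23 and was 66.3% G or C. Over 35116 RefSeq promoters of the same length the medians were 14 CpG dinucleotides and 58.7%. Neither sequence held the TCF/LEF motif CTTTGAT or the AP-1 motif TGAGTCA, searched on both strands. Among 43 promoters of the 30 member genes matched in the RefSeq table, 0 held CTTTGAT, against 2.62% of all promoters, and 1, of RNF43, held TGAGTCA, against 4.95%.

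Among the genes for ligands and R-spondins, more regions were called lower than higher. In osimertinib DTP, 1 of their 57 regions was higher and 5 were lower, and after AZD5153 2 were higher and 19 lower. These are 1.75% and 8.77%, then 3.51% and 33.3%, of ligand regions, against 5.58% and 5.13%, then 9.05% and 9.01%, over all regions tested. Over all annotated regions the shares were 6.98% and 7.22%, then 10.7% and 11.1%. Of the ligand regions, 51 lay away from promoters. Of these, 0% were higher and 9.8% lower in osimertinib DTP, then 3.92% and 37.3% after AZD5153. All annotated regions away from promoters had 9.35% and 10.3%, then 13.7% and 15.6%. The lower share in osimertinib DTP was thus near that of such regions. The median log2 fold change of ligand regions was −0.81 and −0.86. These 19 regions lay near 6 genes, and 6 of them belonged to WNT7A, 6 to WNT7B and 4 to RSPO2, so neighbouring regions were counted several times.

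RSPO2, an R-spondin that amplifies Wnt signalling, lies on chromosome 8, and its 4 regions lay 8.9 to 36.8 kb upstream of the TSS. The region 8884 bp upstream had 4.72, 14.9 and 9.96 CPM in DMSO, 0.287, 0.557 and 0.604 CPM in osimertinib DTP, and 0.1002, 0.349 and 0.193 CPM in osimertinib DTP + AZD5153. The 6 treated libraries held 1 to 6 reads there, and each lay below every DMSO library. Its log2 fold change was −4.33 ± 0.70 (SE, adjusted p = 0.00337) in osimertinib DTP and −5.45 ± 0.78 (adjusted p = 0.00114) after AZD5153. In osimertinib DTP 3 of the 4 RSPO2 regions were called lower, and after AZD5153 all 4 were.

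WNT7A and WNT7B encode ligands best known for signalling through beta-catenin. The leading WNT7A region, in an intron 53083 bp from the TSS (chr3:13821529-13822030, build hg38), had 10.6, 17.6 and 8.55 CPM in DMSO, 2.10, 2.23 and 2.72 CPM in osimertinib DTP and 1.70, 1.28 and 0.773 CPM after AZD5153. The groups did not overlap with DMSO. Its log2 fold change was −2.37 ± 0.56 (adjusted p = 0.0141) and −3.24 ± 0.59 (adjusted p = 0.00245). Of the 9 WNT7A regions, 2 were lower in osimertinib DTP and 6 after AZD5153, with median log2 fold changes of −1.32 and −2.06.

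Of the 15 WNT7B regions, 0 were called in osimertinib DTP, where 14 of 15 had a negative log2 fold change, and 6 were called lower after AZD5153. The leading one, in an intron 37445 bp from the TSS (chr22:45934769-45935270), had 29.2, 47.9 and 35.2 CPM in DMSO, 13.9, 19.6 and 7.25 CPM in osimertinib DTP and 8.02, 7.33 and 7.73 CPM after AZD5153. Its log2 fold change was −1.46 ± 0.53 (adjusted p = 0.0832) in osimertinib DTP and −2.28 ± 0.55 (adjusted p = 0.00946) after AZD5153. The levels of osimertinib DTP and osimertinib DTP + AZD5153 lay on both sides of each other in single libraries, and the difference between these groups was not called. The highest WNT7B promoter region ranged from 7.75 to 11.5 CPM in DMSO and from 1.70 to 11.98 CPM after AZD5153, and its log2 fold change of −0.78 was not called (adjusted p = 0.469), but was called without osimertinib DTP + AZD5153 replicate 3, its highest library (adjusted p = 0.00396).

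WNT5A, the ligand of the non-canonical branch, was the 1 ligand with a gain at its promoter. The region 102 bp upstream of its TSS (chr3:55487744-55488245) had 1.09, 0.929 and 0.402 CPM in DMSO, 4.49, 10.2 and 2.62 CPM in osimertinib DTP and 1.80, 1.40 and 9.66 CPM after AZD5153. All treated libraries were above all DMSO libraries, and the highest of each treated group was the library that stood apart. The log2 fold change was 2.80 ± 0.80 (adjusted p = 0.0337) in osimertinib DTP and 2.35 ± 0.80 (adjusted p = 0.0506) after AZD5153. Without osimertinib DTP replicate 2 the first had an adjusted p of 0.159, 6 of the 9 single-library omissions ended the call, and so did the replicate block (adjusted p = 0.0713).

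Among the other ligands after AZD5153, WNT16 (log2 fold change −2.12), WNT6 (−2.17) and WNT2 (−1.87) each had 1 region called lower, at adjusted p of 0.0262, 0.0266 and 0.028. WNT11, another ligand of the non-canonical branch, had 2 of its 3 regions called higher, 28.1 and 30.1 kb upstream. The region 30119 bp upstream had 3.17, 2.06 and 1.51 CPM in DMSO, 5.93, 5.01 and 4.23 CPM in osimertinib DTP and 13.4, 8.96 and 9.47 CPM after AZD5153. The 3 groups did not overlap and were ordered from DMSO up to osimertinib DTP + AZD5153, and the log2 fold change was 1.16 ± 0.54 (adjusted p = 0.182) in osimertinib DTP and 2.23 ± 0.55 (adjusted p = 0.0109) after AZD5153.

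Of the 90 regions of receptors and co-receptors, 6 were higher and 6 lower in osimertinib DTP, and 8 were higher and 4 lower after AZD5153. The shares were 6.67% and 6.67%, then 8.89% and 4.44%, beside the same background. The gains in osimertinib DTP were LGR5 and ROR1, and the losses were ROR1, ROR2, LGR4 and LRP5. Of the regions of FZD1 to FZD7, 0 were called in osimertinib DTP and 1, near FZD2, was higher after AZD5153 (log2 fold change 1.73 ± 0.58, adjusted p = 0.0461).

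LGR5, an R-spondin receptor and a widely used Wnt target and stem cell marker, had all 5 of its regions higher in osimertinib DTP. The intronic region 9182 bp from the TSS (chr12:71580446-71580947) had 0.635, 0.516 and 0.503 CPM in DMSO, 10.7, 23.1 and 20.7 CPM in osimertinib DTP and 2.90, 13.3 and 3.48 CPM in osimertinib DTP + AZD5153. All libraries of both treated groups lay above all DMSO libraries. After AZD5153, 2 of the 3 libraries lay below all osimertinib DTP libraries, and replicate 2 lay between them.

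The log2 fold change of this LGR5 region against DMSO was 5.00 ± 0.75 (adjusted p = 0.00292) in osimertinib DTP and 3.54 ± 0.72 (adjusted p = 0.00422) after AZD5153. It was the largest log2 gain among the 16 higher members in osimertinib DTP, and 4 of the 5 regions were called after AZD5153. Between the treated groups it was −1.46 ± 0.62 (unadjusted p = 0.0306), which was not called after adjustment. LGR5 had no region within 1 kb of a TSS. LGR4, a close relative, had an intronic region (chr11:27401776-27402277) that fell from 4.08, 7.95 and 4.73 CPM in DMSO to 0.669, 0.139 and 0.705 CPM in osimertinib DTP, at an adjusted p of 0.0124. The highest LGR4 promoter region was not called in either comparison, with log2 fold changes of 0.57 and 0.81.

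ROR1 and ROR2, receptors for WNT5A, had losses inside their gene bodies, and ROR1 had gains as well. An intronic ROR1 region 10731 bp from a TSS (chr1:64020034-64020535) had 0.544, 0.826 and 0.905 CPM in DMSO, 3.15, 5.01 and 7.45 CPM in osimertinib DTP and 9.82, 22.3 and 1.55 CPM after AZD5153. Its log2 fold change was 2.76 ± 0.78 (adjusted p = 0.0322) and 3.88 ± 0.80 (adjusted p = 0.00463), and the first call was lost with the replicate block (adjusted p = 0.0539). Another intronic region 92472 bp from a TSS (chr1:63867762-63868263) moved the other way.

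That second ROR1 region had 13.4, 26.6 and 20.01 CPM in DMSO, 3.63, 2.23 and 3.83 CPM in osimertinib DTP and 4.81, 7.79 and 1.16 CPM after AZD5153, with log2 fold changes of −2.62 ± 0.65 (adjusted p = 0.0176) and −2.10 ± 0.64 (adjusted p = 0.0296). Of the 23 ROR1 regions, 1 was higher and 3 lower in osimertinib DTP, and 2 were higher and 1 lower after AZD5153. The ROR1 promoter region (chr1:63774713-63775214) had 12.97, 11.05 and 10.46 CPM in DMSO, 13.1, 37.6 and 14.6 CPM in osimertinib DTP and 27.4, 32.2 and 79.8 CPM after AZD5153. It was called higher after AZD5153, at a log2 fold change of 2.01 ± 0.59 (adjusted p = 0.0262), and all 3 libraries of that group lay above all DMSO libraries. The adjusted p was 0.0303 without the replicate 3 that stood apart, 0.117 without DMSO replicate 2 and 0.125 without DMSO replicate 3, and 3 of the 9 single-library omissions ended the call. In ROR2 the intronic region at chr9:91825212-91825713 had 8.71, 17.9 and 13.6 CPM in DMSO, 1.43, 1.53 and 1.91 CPM in osimertinib DTP and 0.801, 2.56 and 2.71 CPM after AZD5153. The fall was −3.03 ± 0.61 (adjusted p = 0.00703) and −2.74 ± 0.61 (adjusted p = 0.00637) on the log2 scale.

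Of the 15 regions of LRP5, the co-receptor, 1 was lower in osimertinib DTP (log2 fold change −2.34, adjusted p = 0.0311), and 1 was higher and 1 lower after AZD5153, at 1.92 (adjusted p = 0.0333) and −2.08 (adjusted p = 0.0369). Of the 6 LRP6 regions, 0 were called in either comparison.

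**Figure D2:**
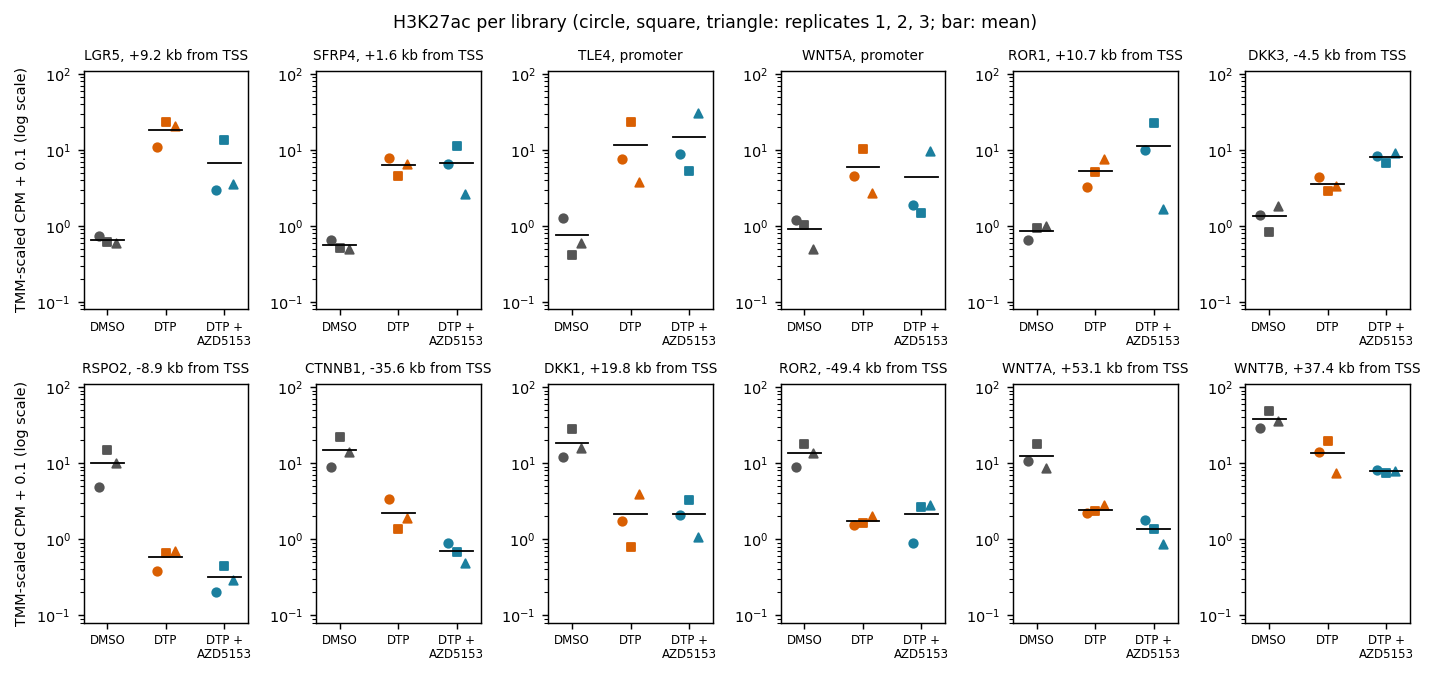
H3K27ac in each library, as TMM-scaled CPM plus 0.1 on a log scale, for 12 regions of Wnt pathway genes that were called against DMSO in osimertinib DTP or after AZD5153. Points are replicates 1 to 3 and bars are group means; the LGR5 region was at 0.503 to 0.635 CPM in DMSO and at 10.7 to 23.1 CPM in osimertinib DTP, whereas the ROR2 region fell from 8.71 to 17.9 CPM to 1.43 to 1.91 CPM.

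Among the secreted inhibitors, SFRP4, a secreted Frizzled-related protein that binds Wnt ligands, had 2 regions, and both were higher in both comparisons. The region at its start site (chr7:37916504-37917005), which covers 238 bases of the sequence printed above, had 1.09, 0.103 and 0.201 CPM in DMSO, 3.54, 10.7 and 2.62 CPM in osimertinib DTP and 5.11, 3.37 and 19.3 CPM after AZD5153. Every treated library lay above every DMSO library. The log2 fold change was 3.52 ± 0.90 (adjusted p = 0.0207) in osimertinib DTP and 4.23 ± 0.92 (adjusted p = 0.00586) after AZD5153.

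The highest values at the SFRP4 start were again those of the libraries that stood apart. Without osimertinib DTP replicate 2 the first comparison had an adjusted p of 0.117, and without osimertinib DTP + AZD5153 replicate 3 the second had 0.00206. The region 1562 bp from the TSS had 0.544, 0.413 and 0.402 CPM in DMSO, 7.65, 4.45 and 6.34 CPM in osimertinib DTP and 6.41, 11.2 and 2.51 CPM after AZD5153. At this region the libraries that stood apart were the lowest of their groups, and the log2 fold changes were 3.72 ± 0.68 (adjusted p = 0.00466) and 3.85 ± 0.69 (adjusted p = 0.00217).

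DKK1, which blocks LRP5 and LRP6 and is itself a Wnt target, was called lower at a distal site and not called at its promoter. A region 19835 bp from the TSS (chr10:52335087-52335588) had 11.9, 28.2 and 15.5 CPM in DMSO, 1.62, 0.696 and 3.83 CPM in osimertinib DTP and 2.00, 3.14 and 0.966 CPM after AZD5153. The log2 fold change was −3.15 ± 0.69 in each comparison (adjusted p = 0.00995 and 0.00614). The region 20597 bp from the TSS fell likewise, at −3.09 (adjusted p = 0.00989) and −2.79 (adjusted p = 0.00948). The DKK1 promoter had 31.0 to 46.3 CPM in DMSO, 26.96 to 67.8 CPM in osimertinib DTP and 45.8 to 68.0 CPM after AZD5153, and was not called (log2 fold changes 0.23 and 0.55). DKK3, a divergent member of the DKK family, had 2 intronic regions higher after AZD5153, the leading one at 2.66 ± 0.57 (adjusted p = 0.00559) with 0.723 to 1.71 CPM in DMSO and 6.51 to 8.89 CPM after AZD5153.

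The next group was the inhibitors at the membrane and in the cytoplasm. Of 24 regions near APC, AXIN1, AXIN2, NKD1, RNF43 and ZNRF3, 0 were higher and 1 was lower in osimertinib DTP, and 2 were higher and 1 lower after AZD5153, counts too small to set against the background of 10.7% and 18.1% called. The lower region was the 1 region of NKD1, an antagonist of Dishevelled, 74205 bp from its TSS and inside another transcript. It had 7.16, 11.1 and 7.14 CPM in DMSO, 2.39, 0.557 and 0.201 CPM in osimertinib DTP and 0.801, 0.582 and 0 CPM after AZD5153. The groups did not overlap with DMSO, and the log2 fold changes were −2.96 ± 0.80 (adjusted p = 0.0259) and −4.02 ± 0.87 (adjusted p = 0.0057).

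Both gains after AZD5153 were near RNF43, a ubiquitin ligase that removes Frizzled from the membrane, and both lay inside neighbouring genes. The leading one, in TSPOAP1-AS1 (chr17:58391699-58392200), had 2.45, 2.58 and 2.31 CPM in DMSO, 4.68, 6.12 and 3.83 CPM in osimertinib DTP and 17.3, 9.66 and 4.64 CPM after AZD5153, with a log2 fold change of 0.99 ± 0.58 (adjusted p = 0.302) in osimertinib DTP and 2.11 ± 0.58 (adjusted p = 0.0195) after AZD5153. The promoters of APC and AXIN1, scaffolds of the destruction complex, of AXIN2, a feedback target, and of RNF43 and ZNRF3 were not called in either comparison. The RNF43 promoter had 13.7, 17.8 and 12.7 CPM in DMSO and 34.7, 35.1 and 8.12 CPM after AZD5153, and it was called higher without that replicate 3 (adjusted p = 0.0269). AXIN2 had 1 region, its promoter, at 2.99, 2.79 and 2.51 CPM in DMSO, 5.07, 11.1 and 1.81 CPM in osimertinib DTP and 2.60, 1.63 and 17.2 CPM after AZD5153. Its log2 fold changes of 1.10 and 1.34 were not called, the library that stood apart was the highest of each treated group, and the groups overlapped.

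Of the 66 regions of nuclear effectors, 7 were higher and 4 lower in osimertinib DTP, and 8 were higher and 4 lower after AZD5153. The shares were 10.6% and 6.06%, then 12.1% and 6.06%. Over all regions tested they were 5.58% and 5.13%, then 9.05% and 9.01%. All 7 gains in osimertinib DTP belonged to TLE4, a corepressor of the Groucho family, which had 7 regions in all. The region ending upstream of its RefSeq start (chr9:79572622-79573123) covers 197 bases of the printed sequence, all before the capitals. It had 1.18, 0.310 and 0.503 CPM in DMSO, 7.36, 23.2 and 3.62 CPM in osimertinib DTP and 8.62, 5.24 and 30.0 CPM after AZD5153. All treated libraries were above all DMSO libraries, and the libraries that stood apart were again highest. The log2 fold change was 4.05 ± 0.87 (adjusted p = 0.0094) and 4.41 ± 0.88 (adjusted p = 0.00395). Without osimertinib DTP replicate 2 the first had an adjusted p of 0.0623, and without osimertinib DTP + AZD5153 replicate 3 the second had 0.000648.

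The TLE4 gains lay between chr9:79572044 and chr9:79765202, up to 56.1 kb from the nearest TSS, which was not the same TSS for every region. The intronic region 30930 bp from its nearest TSS had 0.453, 0.620 and 0.201 CPM in DMSO, 8.03, 5.57 and 4.83 CPM in osimertinib DTP and 7.41, 4.65 and 0.387 CPM after AZD5153, where replicate 3 lay within the DMSO range. Its log2 fold change was 3.81 ± 0.83 (adjusted p = 0.00972) in osimertinib DTP. The median over the 7 regions was 2.90 in osimertinib DTP and 3.28 after AZD5153, where 6 were called. Among its relatives, 0 of 13 TLE1 regions and 0 of 5 TLE2 regions were called in osimertinib DTP, 1 of 8 TLE3 regions was lower (log2 fold change −2.01, adjusted p = 0.0418), and 1 TLE1 region was higher after AZD5153 (1.96, adjusted p = 0.0409).

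CTNNB1, the gene of beta-catenin, was called lower at an upstream region and not called at its promoter. At 35599 bp upstream (chr3:41158641-41159142) H3K27ac was 8.71, 22.1 and 13.98 CPM in DMSO, 3.25, 1.25 and 1.81 CPM in osimertinib DTP and 0.801, 0.582 and 0.387 CPM after AZD5153. The 3 groups did not overlap and were ordered from DMSO down to osimertinib DTP + AZD5153. The log2 fold change was −2.81 ± 0.60 (adjusted p = 0.00906) and −4.58 ± 0.68 (adjusted p = 0.00122) against DMSO. The CTNNB1 promoter had 16.9 to 18.7 CPM in DMSO, 11.7 to 48.0 CPM in osimertinib DTP and 16.1 to 45.4 CPM after AZD5153, and its log2 fold changes of 0.53 ± 0.60 and 0.57 ± 0.60 were not called.

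TCF7L2, the TCF factor with most regions, had 2 of 19 lower in osimertinib DTP, and 1 higher and 3 lower after AZD5153. The leading loss, 45843 bp upstream (chr10:112903903-112904404), had 6.08, 15.8 and 11.1 CPM in DMSO, 2.10, 2.09 and 0.806 CPM in osimertinib DTP and 2.30, 3.02 and 0.580 CPM after AZD5153, with log2 fold changes of −2.72 ± 0.67 (adjusted p = 0.017) and −2.43 ± 0.66 (adjusted p = 0.0178). An intronic region 51350 bp from a TSS rose after AZD5153, by 1.61 ± 0.55 (adjusted p = 0.0477), from 8.25, 17.4 and 11.6 CPM in DMSO to 40.1, 51.2 and 22.4 CPM. The TCF7L2 promoter was not called, at 0.11 and 0.54. All 4 regions of TCF7 had a negative log2 fold change in both comparisons, with medians of −0.58 and −1.53, and 0 were called, though its promoter was called lower after AZD5153 without replicate 3 of that group (adjusted p = 0.0244).

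**Figure D3:**
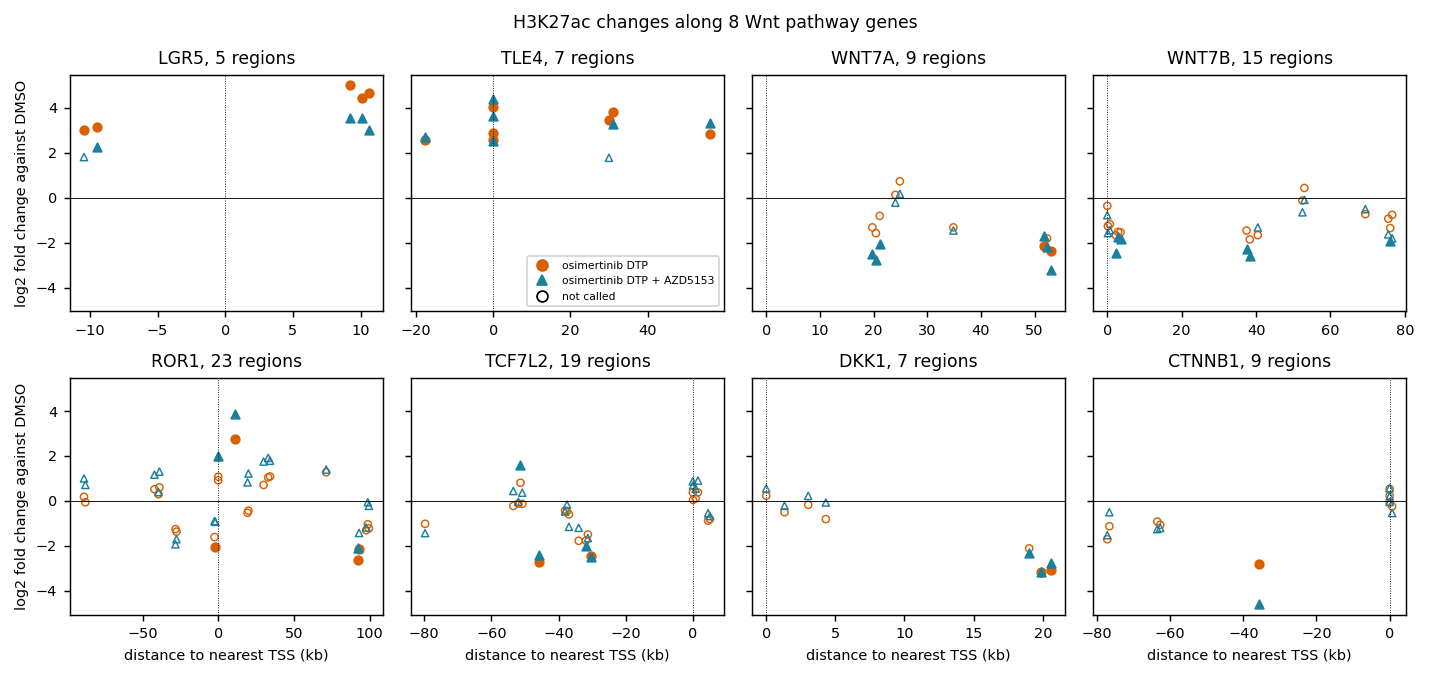
Log2 fold change of H3K27ac against DMSO by distance to the nearest TSS, in kb, for every region of 8 Wnt pathway genes; circles are osimertinib DTP, triangles osimertinib DTP + AZD5153, and filled points are called. The 5 LGR5 and 7 TLE4 regions lie above 0, the called WNT7A, WNT7B, DKK1 and CTNNB1 regions lie below 0 and away from the promoter, and ROR1 and TCF7L2 have called regions on both sides of 0.

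At promoters, 17 genes of the pathway's core were read at their highest promoter region, and 1 was called in osimertinib DTP (WNT5A) and 1 after AZD5153 (ROR1). Without osimertinib DTP + AZD5153 replicate 3, FZD6 was also called higher in osimertinib DTP (adjusted p = 0.039), and after AZD5153 RNF43 was also higher (0.0269) and LRP5 (0.000744), WNT7B (0.00396) and TCF7 (0.0244) were lower. The LRP5 region read (chr11:68437510-68438011) lay 582 bp upstream of its nearest TSS. The other LRP5 promoter region (chr11:68313229-68313730) lay 545 bp from a different TSS and was not among the 17. Of the 15 LRP5 regions, 11 had a positive log2 fold change after AZD5153. With any 1 of the DMSO libraries left out, 0 of the 17 were called in either comparison. Log2 fold changes ranged from −1.12 for TCF7 to 2.80 for WNT5A in osimertinib DTP, and from −1.48 to 2.35 for the same genes after AZD5153. Osimertinib DTP replicate 2 was the highest library of its group in 15 of the 17, and osimertinib DTP + AZD5153 replicate 3 in 16 of 17. At LRP6, for instance, they had 69.4 and 86.2 CPM, against 19.1 to 39.1 CPM in the other treated libraries and 23.8 to 30.3 CPM in DMSO.

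**Figure D4:**
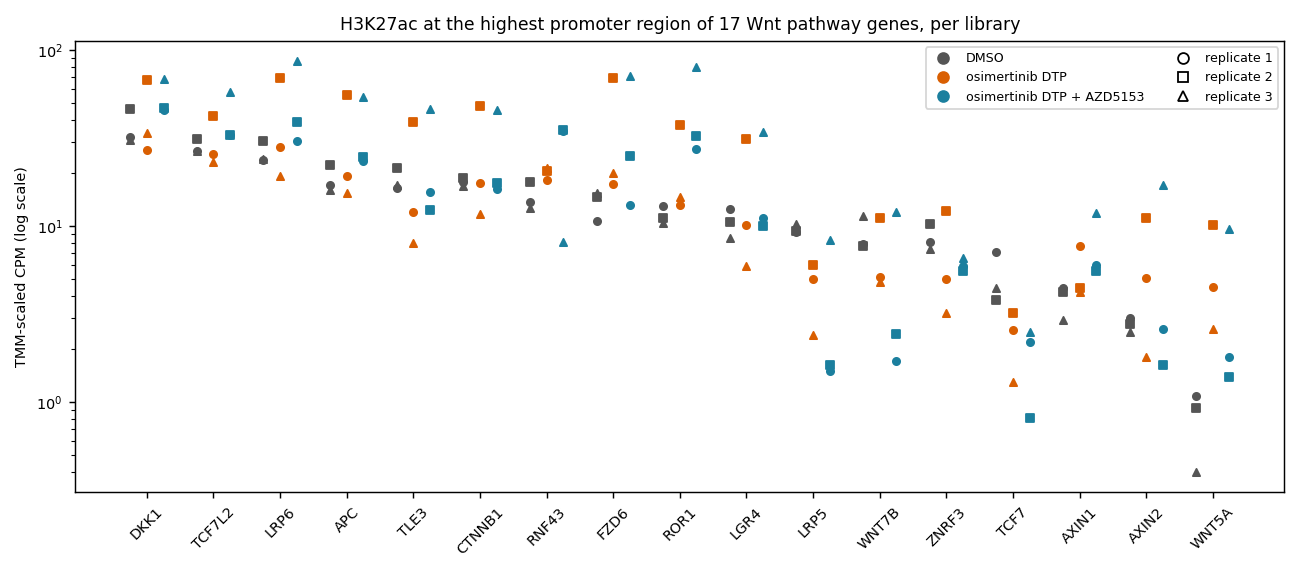
H3K27ac per library at the highest promoter region of 17 Wnt pathway genes, as TMM-scaled CPM on a log scale, with genes ordered by their mean level in DMSO. Osimertinib DTP replicate 2 (square) and osimertinib DTP + AZD5153 replicate 3 (triangle) are the highest of their groups at 15 and 16 of the 17 promoters.

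The second question was whether AZD5153 changed H3K27ac in persisters. Between osimertinib DTP + AZD5153 and osimertinib DTP, 0 of the 261 members were called with edgeR and 0 with DESeq2. Over all regions tested 0 were called as well, 0% of 157919. At an unadjusted p under 0.05 there were 12 members and 7013 regions in all. The smallest p among members was that of the CTNNB1 upstream region, at a log2 fold change of −1.78 ± 0.66 (unadjusted p = 0.0144). The next were the LGR5 region 10606 bp from the TSS (−1.67 ± 0.69, unadjusted p = 0.0254) and regions of WNT3A (−1.36) and ROR1 (1.36 and 1.65), and each had an adjusted p of 1.0.

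The count of 0 changed once both libraries that stood apart were left out. In that fit, chosen after the data had been seen and with 2 libraries left in each treated group, 15 members were called, 12 higher and 3 lower after AZD5153, or 5.75% of members beside 2.11% of 161681 regions tested. Those libraries were left out for their promoter share, and what sets them apart was not tested. The 12 higher regions were near ROR1 (5), RNF43 (3), TLE1 (3) and TCF7L2 (1), and the 3 lower ones near WNT7A (1) and WNT7B (2). The ROR1 intronic region 19923 bp from a TSS had 5.07 and 5.24 CPM in osimertinib DTP replicates 1 and 3 and 19.5 and 25.9 CPM in osimertinib DTP + AZD5153 replicates 1 and 2, but 2.51 CPM in replicate 3. Its log2 fold change was 2.195 ± 0.452 (adjusted p = 0.0191) without both libraries and 1.65 ± 0.68 (adjusted p = 1.0) with them.

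Genes widely used as Wnt/beta-catenin targets (AXIN2, NKD1, RNF43, ZNRF3, LGR5, LEF1, TCF7, APCDD1 and DKK1) did not move one way. Regions were found for 7 of these 9 genes, 34 in all, and 5 were higher and 3 lower in osimertinib DTP, with 6 higher and 4 lower after AZD5153. These were 14.7% and 8.82%, then 17.6% and 11.8%, beside 5.58% and 5.13%, then 9.05% and 9.01%, over all regions tested. The 5 gains in osimertinib DTP were all of LGR5, and the 3 losses were of DKK1 and NKD1. The median log2 fold change was 0.33 and 0.69, beside 0.15 and 0.23 over all regions tested.

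Outside the members, 45 other genes of the pathway were read, of which 36 had 257 regions. In osimertinib DTP 11 of these were higher and 28 lower, and after AZD5153 20 were higher and 44 lower, with genes numbering 7 and 9, and 9 and 10. The shares were 4.28% and 10.9%, then 7.78% and 17.1%, against 5.58% and 5.13%, then 9.05% and 9.01%, over all regions tested. Over all annotated regions, from which these were taken, they were 6.98% and 7.22%, then 10.7% and 11.1%. Of the 44 lower regions, 12 belonged to CELSR1 and 11 to NFATC2, so neighbouring regions were counted several times. The genes named next were chosen after their values were seen. CTNNBIP1, an inhibitor that keeps beta-catenin from TCF factors, had 6 of 8 regions lower in osimertinib DTP. A promoter region at chr1:9892549-9893050 fell from 11.9, 17.2 and 16.8 CPM to 1.91, 1.67 and 1.21 CPM. Its log2 fold change was −3.25 ± 0.56 (adjusted p = 0.00374). CTNNBIP1 promoter regions near other TSSs were not called in osimertinib DTP. These were chr1:9909556-9910057 (log2 fold change −1.80, adjusted p = 0.102) and chr1:9910778-9911279 (−0.76, adjusted p = 0.41). GPC4, a heparan sulphate proteoglycan, had 3 of 4 regions higher, the leading one at 4.68 ± 0.75 (adjusted p = 0.00345). The single region of SP5, a transcription factor and Wnt target, lay at its promoter and was higher, at 2.97 ± 0.74 (adjusted p = 0.0179) in osimertinib DTP and 3.32 ± 0.75 (adjusted p = 0.00706) after AZD5153.

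The calls were last read against single libraries. All 34 calls in osimertinib DTP had groups that did not overlap, and so did 52 of the 55 after AZD5153. The calls were made from these same levels, so this is no separate support. The share over all called regions is not given here. Called in each of the 9 fits that left out 1 library were, in osimertinib DTP, 2 LGR5 regions and 2 RSPO2 regions. After AZD5153 they were 7 higher regions, of LGR5, ROR1, SFRP4 and TLE4, and 11 lower regions, of CTNNB1, DKK1, LGR4, NKD1, ROR2, RSPO2 and WNT7A. Without DMSO replicate 2, 4 members were called in osimertinib DTP and 20 after AZD5153, and without osimertinib DTP + AZD5153 replicate 3 there were 87 and 114. The shares over all regions in these fits are not given here.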

How the data were processed

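H3K27ac ChIP-seq of 9 H1975 libraries, 3 per group, and 1 pooled input was read from the deposited tables. Per the labels, 30 µg of chromatin, fixed in 1% formaldehyde for 15 min and sheared to 300 to 500 bp, went into each immunoprecipitation, and reads were single-end of 75 nt. The submitters' processing notes list BWA 0.7.17, MACS2 2.2.6, featureCounts 2.0.0, ChIPseeker 1.29.1 and build hg38, with no role or order given. The authors deposited raw read counts per region with no normalization, a subset of them with the gene of the nearest TSS, and 1 peak list per library. The peak lists hold the authors' score, fold enrichment as a ratio and p and q as −log10 values, of which peak positions and −log10 q were used.

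The quasi-likelihood test of edgeR 4.0.16, run in R 4.3.3 beside limma 3.58.1, was applied to the counts, with filterByExpr (minimum count 10), TMM, glmQLFit with robust estimation and glmQLFTest in 1 fit of the 9 libraries with a mean per group. This tested 157919 regions, all 261 members among them, and p-values were adjusted over all of them with the Benjamini-Hochberg method at 0.05. Every p printed comes from this fit or from the named alternative of it. SE is the standard error of the log2 fold change, and levels are TMM-scaled CPM. The procedure was also run on simulated counts, whose outcome is not given here. That simulation did not include the promoter shares of the libraries that stood apart, so it cannot speak to their effect. Alternatives were DESeq2 1.42.0, no TMM, a loess offset, no filter, annotated regions only, only the libraries compared, a block for the replicate number, a threshold of 0.01 and leaving out each library in turn. Leaving out both libraries that stand apart was added later.

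Members and gene lists were chosen with earlier results of these data known. Named regions were, per gene and direction, the called one with the smallest adjusted p, the highest promoter region of core genes, and the 5 smallest p between treated groups. Beside these, other regions of the same genes were named after their values were seen. Same-numbered libraries of DMSO and osimertinib DTP deviated together (Pearson r across regions 0.334, 0.355 and 0.324), which the rule used took as pairing. No correlation was computed between differently numbered libraries, so pairing is not established, and the labels do not say what a number marks. The main fit used no pairs. P-values set a group difference against the spread between libraries of a group, estimated in the main fit from all 9 libraries and moderated across regions. Sequences were taken from RefSeq (GRCh38.p14), and region sequences were not used here.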

Additional observations from a re-analysis of the deposited data

How the results depend on the processing

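In osimertinib DTP, the 34 members called against DMSO became 55 with DESeq2 1.42.0, 85 with only the libraries of both groups, 12 at an adjusted p under 0.01 and 81 with both libraries that stand apart left out. After AZD5153, the 55 called against DMSO became 85, 35, 22 and 138 under the same alternatives. Between the treated groups the count stayed at 0 except for 15 without both of those libraries. Leaving out 1 library at a time gave 4 to 87 members in osimertinib DTP, 20 to 114 after AZD5153 and 0 between the treated groups. Low counts came without DMSO replicate 2 (4 and 20) and DMSO replicate 3 (11 and 21), and in osimertinib DTP also without its replicates 2 (9) and 3 (12), or replicate 1 or DMSO replicate 1 (19 each). After AZD5153 there were 32 without its replicate 1. High counts came without its replicate 3 (87 and 114). The cause was not tested beyond these fits, and fewer libraries also mean fewer degrees of freedom. Except for the 15 members, the share of all regions called in these fits is not given here. The counts therefore cannot tell a change in members from a change over all regions. Called promoter regions numbered 8 and 9 when the class was widened to 3 kb. These were 6 higher and 2 lower in osimertinib DTP, and 6 higher and 3 lower after AZD5153. Of the 23 member regions at 1 to 3 kb, 4.35% were higher and 8.7% lower, then 4.35% and 13%. All annotated regions at that distance had 6.9% and 7.36%, then 10.6% and 12.7%.

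The replicate block, which pairs DMSO and osimertinib DTP by number, gave 30 members (29 of them among the 34), 55 after AZD5153 and 0 between the treated groups. Of the named calls, it ended ROR1 (adjusted p = 0.0539) and WNT5A (0.0713) in osimertinib DTP, and LRP5 (0.0806), TLE1 (0.0982) and FZD2 (0.0601) after AZD5153, where the numbers did not pair the libraries by the rule used. Without TMM the counts were 34 and 57, and with a loess offset 44 and 58. The split was 16 higher and 28 lower with loess in osimertinib DTP, against 16 and 18, and 18 higher and 39 lower without TMM after AZD5153, against 24 and 31. After AZD5153, all tested regions together had a median log2 fold change of 0.23 with TMM and −0.02 without it. Over the named log2 fold changes, 0 changed sign. Among alternatives other than leaving out 1 library, 344 kept their side of the threshold, 21 lost it and 2 gained it, and with 1 library left out 302 kept it and 112 lost it. Depth limits the low levels, since regions near RSPO2, LGR4 and NKD1 held few reads in treated libraries.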
